A study of Mus musculus with 40 samples.

Results

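The genes described here encode subunits of the chromatin remodeling complexes SWI/SNF, ISWI, INO80 and NuRD, together with related enzymes of the SNF2 family. They were chosen as a list of 55 gene symbols, matched to the NCBI gene IDs of the deposited tables. All 55 were found at both stages, among 15449 genes listed at E18.5 and 17940 at E14.5, and all had an adjusted p at both, so none was lost to a filter on low values. Of the 55, 26 belong to SWI/SNF, 6 to ISWI, 11 to INO80 and the related SRCAP and EP400 complexes, and 8 to NuRD. The other 4 (Smarcad1, Smarcal1, Atrx and Hells) are SNF2-family enzymes outside those complexes.

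The RNA came from forebrains of male mouse embryos at E18.5 or E14.5 (embryonic days), and polyadenylated RNA was sequenced. At each stage 5 libraries were from embryos labelled Chd8 KI, which by the title of the series carry a duplication of Chd8, and 5 were from wild-type (WT) embryos. The labels give neither the strain nor the promoter and insertion site of the added copy, and do not say whether libraries came from separate litters, so a p-value here measures the spread between these libraries. For each stage the authors deposited 1 table comparing KI with WT, which gives no value per library, so the depth and the values of single libraries are unknown here.

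Chd8 encodes a remodeler of the CHD family, in which an ATPase motor moves or opens nucleosomes. The complexes described here use related motors for different tasks: SWI/SNF slides and ejects nucleosomes, ISWI spaces them, INO80 and SRCAP act in the exchange of histone variants, and NuRD joins a CHD motor to histone deacetylases. SWI/SNF is assembled from interchangeable paralogs. In the developing mouse brain, Actl6a, Ss18, Phf10 and Dpf2 of dividing progenitors give way to Actl6b, Ss18l1, Dpf1 and Dpf3 in postmitotic neurons.

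The forebrain markers Neurod6, Tbr1, Emx1 and Dlx2 were listed at both stages, while of 6 markers of hindbrain and midbrain 0 were listed at E18.5 and 1, En2, at E14.5. Chd8 itself differed by a log2 fold change of 0.51 at E18.5 (SE 0.0378) and 0.64 at E14.5 (SE 0.0313) in the authors' deposited table. The direction of every fold change was read from this gene, so it does not check the labels. Markers of cell classes stood as follows in KI over WT, on the log2 scale. Neuronal markers lay above 0 in 10 of 10 at E18.5 (median log2 fold change 0.03) and in 2 of 10 at E14.5 (−0.03), and markers of progenitors and division in 2 of 10 at E18.5 (−0.06) and 7 of 10 at E14.5 (0.03). Glial markers lay below 0 in 8 of 8 at E18.5 (median −0.18) and in 5 of the 7 tested at E14.5 (−0.06). Red cell markers lay above 0 in both tested at E18.5 (median 0.19) and in all 4 tested at E14.5 (0.49), where 2 passed. Of 6 meningeal markers, 5 had no p-value at E18.5, with SEs of up to 1.44 (Col1a1), and 85 genes in all had none at that stage, against 3 at E14.5; the 4 tested at E14.5 lay above 0. Among forebrain markers, Neurod6 of excitatory neurons stood at −0.02 at E18.5 and fell by 0.20 in KI at E14.5 (adjusted p = 0.00438) in the authors' deposited table, and Tbr1 stood at −0.03 and −0.12 (adjusted p = 0.209 at E14.5). Dlx1 of inhibitory neurons stood at 0.08 at E18.5 and rose by 0.17 in KI at E14.5 (adjusted p = 0.0369) in the authors' deposited table, and Dlx2 stood at 0.00 and 0.15 (adjusted p = 0.0835 at E14.5). The part of these cell classes in the values below was not tested.

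The first question was whether the RNA of other remodelers differed in the forebrain of KI embryos. At E18.5, shortly before birth, 0 of the 55 genes passed an adjusted p of 0.05, against 0.0662% of the 13601 genes tested (0.0441% higher and 0.0221% lower in KI). By the authors' DESeq2 Wald test, unadjusted p was under 0.05 for 2 members with a higher value in KI and 1 with a lower value, or 5.45% of the members. Over all genes it was under 0.05 for 3.13% higher and 2.82% lower, 5.96% in all. The median log2 fold change of the members was 0.01, and 30 of the 55 lay above 0, beside 48.8% of all genes. The share of members with a small p was thus near the background of the table.

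Ino80c, a subunit of INO80, had the largest statistic of the members at E18.5. The deposited mean and fold change imply normalized counts of 545 in KI and 468 in WT, a log2 fold change of 0.22 (SE 0.0687), and its adjusted p in the authors' deposited table was 0.299. Smarca1, an ISWI motor prominent in neurons, had 1459 in KI and 1350.4 in WT. In the authors' deposited table this was a log2 fold change of 0.11 (SE 0.0428) with an adjusted p of 0.636. Actr8, an actin-related protein of INO80, had 737 in KI and 812 in WT, which the authors' deposited table gives as −0.14 (SE 0.0612, adjusted p = 0.770). None of these values passed. The next members by statistic were Srcap at −0.10 (SE 0.0534), Ss18 at −0.10 (SE 0.0555) and Bcl7c at 0.14 (SE 0.0852), with adjusted p-values of 0.873, 0.931 and 0.981 in the authors' deposited table.

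By complex, 17 of 26 SWI/SNF genes lay above 0 at E18.5 (median log2 fold change 0.02), as did 1 of 6 ISWI genes (−0.03), 7 of 11 genes of INO80, SRCAP and EP400 (0.00) and 2 of 8 NuRD genes (−0.02). The SWI/SNF motors Smarca2 and Smarca4 stood at 0.02 and −0.04 in the authors' deposited table (SE 0.0326 and 0.0369). The deacetylases Hdac1 and Hdac2 of NuRD stood at −0.01 and −0.03 there (SE 0.0539 and 0.0424, from the authors' deposited table). The neuronal subunit genes Actl6b, Ss18l1, Dpf1 and Dpf3 were at 0.01, −0.04, −0.02 and 0.08 in the authors' deposited table (SE 0.162 for Dpf3). The progenitor subunit genes Actl6a, Ss18, Dpf2 and Phf10 were at 0.02, −0.10, −0.01 and 0.05 there (SE 0.0555 for Ss18). All 4 genes of PBAF, the SWI/SNF form with Arid2 and Pbrm1, lay above 0, by 0.01 for Pbrm1 to 0.07 for Arid2 in the authors' deposited table. Hells, a helicase of dividing cells that acts in DNA methylation, had the lowest value of the members, −0.16 (SE 0.101) by the authors' deposited table, with an adjusted p of 0.992. The markers of progenitors and division had a median of −0.06 at this stage, and their part in the value of Hells was not tested.

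At E14.5, 1 of the 55 genes passed, against 1.21% of the 13417 genes tested (0.738% higher and 0.47% lower in KI). That gene, Actr5, rose in KI. Unadjusted p was under 0.05 for 6 members with a higher value in KI and 1 with a lower value by the authors' DESeq2 Wald test, or 12.7% of the members. Over all genes it was under 0.05 for 6.26% higher and 5.28% lower, 11.5% in all. The median log2 fold change of the members was 0.02, and 32 of the 55 lay above 0, beside 49.8% of all genes. At this stage, too, the share of members with a small p was near the background. The markers Neurod6, Dlx1 and 2 red cell genes passed at the same stage, and their part in the members' values was not tested.

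Actr5 encodes an actin-related protein of INO80, which in yeast couples the motor to the nucleosome. At E18.5 the implied mean normalized counts were 354 in KI and 354 in WT, a log2 fold change of 0.00 (SE 0.0843) in the authors' deposited table. At E14.5 they were 445 in KI and 374 in WT. This was a rise of 19.1% (95% interval 7.96% to 31.5%), with a log2 fold change of 0.25 (SE 0.0725) and a Benjamini-Hochberg adjusted p of 0.0438 in the authors' deposited table. The call lay near the threshold. It ended when every gene with a p-value was adjusted (adjusted p = 0.0585), with the Benjamini-Yekutieli adjustment (0.441) and when the Wald statistics were scaled to their own spread (0.360). Actr5 (gene ID 109275) lies at chr2:158624881-158639211 in GRCm38.p6 and overlaps no other protein-coding gene.

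The members that came next at E14.5 also belong to INO80. Ino80, the motor of the complex, had 1074 in KI and 947 in WT by implied normalized count. Its log2 fold change was 0.18 (SE 0.0564) and its adjusted p 0.0752 in the authors' deposited table, so it did not pass. Ino80c, whose yeast counterpart forms a module with that of Actr5, had 512 in KI and 438 in WT. The authors' deposited table gives it a log2 fold change of 0.22 (SE 0.0809) and an adjusted p of 0.161, which did not pass either. The other INO80 genes lay closer to 0: Ino80b was at 0.10 (SE 0.0652), Ino80d at 0.06 (SE 0.0752), Actr8 at 0.00 (SE 0.0586) and Ino80e at −0.05 (SE 0.0715) in the authors' deposited table. Ruvbl1 and Ruvbl2, ATPases that INO80 shares with other complexes, were at 0.01 and −0.00, and the motors Srcap and Ep400 at −0.02 and 0.05, in the authors' deposited table. Of these 11 genes 8 lay above 0, with a median of 0.05. A further 20 subunits of INO80 and related complexes, listed apart from the members and included in the further subunits below, did not share this. Of these 20, 11 lay above 0 at E14.5, with a median log2 fold change of 0.00. Their values ran from −0.12 to 0.08. Actr5, Ino80 and Ino80c lay above this range, but they were picked for the largest statistics of the members at this stage. Among the 20, unadjusted p by the DESeq2 Wald test was under 0.05 for 0 higher and 1 lower in KI.

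**Figure D1:**
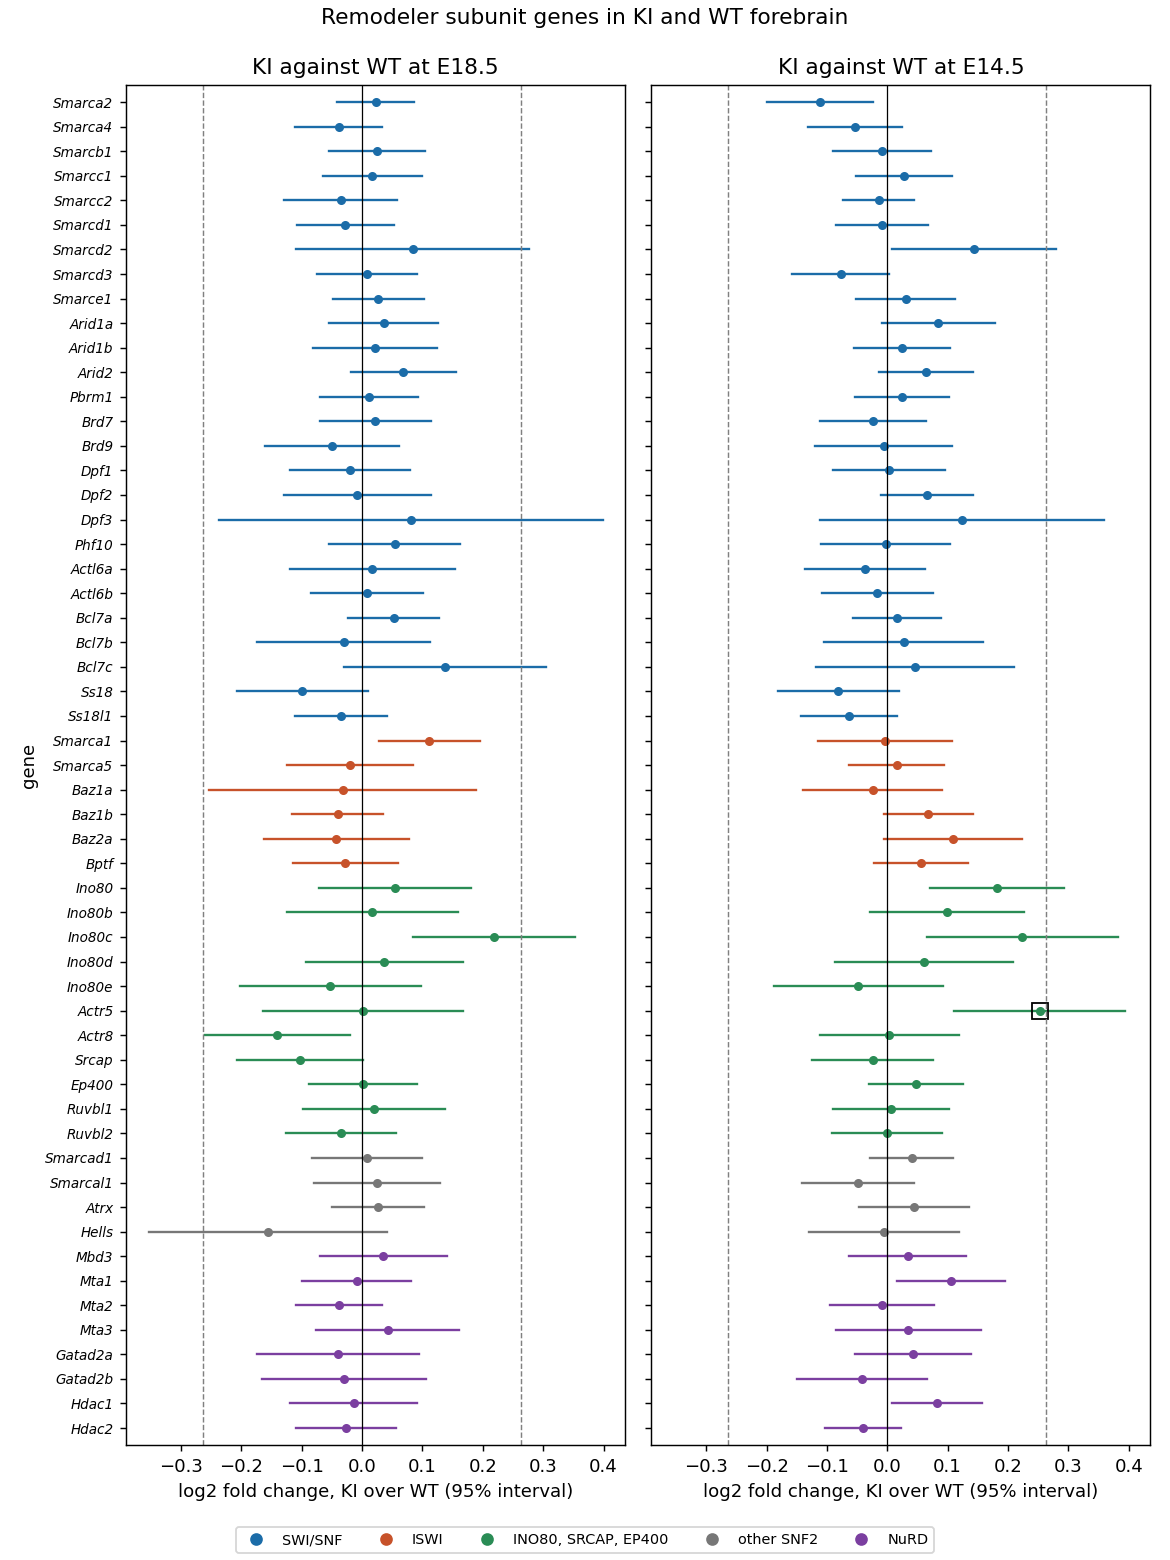
Log2 fold change of KI over WT (points) with its 95% interval (lines) for the 55 subunit genes, at E18.5 in the left panel and E14.5 in the right, coloured by complex. Dashed lines mark a 1.2-fold change and the black square an adjusted p under 0.05, which Actr5 alone has, at E14.5; 50 of the 55 intervals lie between the dashed lines at each stage.

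In SWI/SNF no gene passed at E14.5, and 13 of the 26 lay above 0. The motor gene Smarca2 had implied normalized counts of 3447 in KI and 3724 in WT. This was a log2 fold change of −0.11 (SE 0.0447), and in the authors' deposited table its adjusted p was 0.239. The alternative motor Smarca4 was at −0.05 (SE 0.0399) in the authors' deposited table. Among the interchangeable Smarcd adaptors, Smarcd2 was at 0.14 (SE 0.0694, adjusted p = 0.384), Smarcd1 at −0.01 and Smarcd3 at −0.08, by the authors' deposited table. The scaffold genes Smarcb1, Smarcc1, Smarcc2 and Smarce1 lay between −0.01 and 0.03 in the authors' deposited table. Arid1a and Arid1b, DNA-binding subunits whose human counterparts are mutated in Coffin-Siris syndrome, were at 0.08 (SE 0.0479) and 0.02 (SE 0.0404) in the authors' deposited table. The neuronal subunit genes Actl6b, Ss18l1, Dpf1 and Dpf3 were at −0.02, −0.06, 0.00 and 0.12 in the authors' deposited table (SE 0.120 for Dpf3). Their progenitor counterparts Actl6a, Ss18, Dpf2 and Phf10 were at −0.04, −0.08, 0.07 and −0.00 there.

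NuRD and ISWI had no gene past the threshold at E14.5 either. In NuRD the scaffold gene Mta1 had implied normalized counts of 2240.2 in KI and 2082 in WT, a log2 fold change of 0.11 (SE 0.0459) whose adjusted p was 0.302 in the authors' deposited table. The deacetylase gene Hdac1 had 2009.7 in KI and 1898 in WT, at 0.08 (SE 0.0378) with an adjusted p of 0.346 in the authors' deposited table. Its paralog Hdac2 was at −0.04 (SE 0.0318), and the other 5 NuRD genes lay between −0.04 for Gatad2b and 0.04 for Gatad2a, in the authors' deposited table. In ISWI the motors Smarca5 and Smarca1 were at 0.02 (SE 0.0403) and −0.00 (SE 0.0568) in the authors' deposited table. Their partners Baz2a, Baz1b (a gene of the Williams syndrome interval in humans), Bptf and Baz1a were at 0.11, 0.07, 0.06 and −0.02 in the authors' deposited table.

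The deposited errors set the size of change that these data could have missed. The median SE of the log2 fold change was 0.0533 over the members at E18.5 and 0.0471 at E14.5, beside 0.0727 and 0.0684 over all genes tested. At E18.5 the 95% interval lay inside a 1.2-fold change in either direction for 50 of 55 genes, against 66.1% of all genes. At E14.5 it did so for 50 of 55, against 65.0%. The exceptions were Ino80c, Bcl7c, Smarcd2, Dpf3 and Hells at E18.5 and Actr5, Ino80, Ino80c, Smarcd2 and Dpf3 at E14.5. Dpf3 had the lowest mean of the members, 97.4 normalized counts at E18.5 and 129.9 at E14.5. All 8 NuRD genes, all 6 ISWI genes and both SWI/SNF motors lay inside a 1.2-fold change at both stages.

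The effect of KI was then compared between stages, by subtracting the log2 fold change at E14.5 from that at E18.5. No member passed, and 0.0% of the 13106 genes tested at both stages did. By a two-sided normal test, unadjusted p was under 0.05 for 3 members, Smarca2, Actr5 and Baz1b, or 5.45%, against 4.52% of all genes. Smarca2 had a difference of 0.13 (SE 0.0553, 95% interval 0.03 to 0.24), and Actr5 one of −0.25 (SE 0.111, 95% interval −0.47 to −0.03). Baz1b differed by −0.11 (SE 0.0537) and Baz2a by −0.15 (SE 0.0847). The adjusted p was 0.999 for each of these 4, so the pass of Actr5 at E14.5 and not at E18.5 does not show that its effect differed between stages.

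The sign of the effect was the same at both stages for 35 of the 55 members, beside 57.8% of all genes. By complex it was the same for 16 of 26 SWI/SNF genes, 1 of 6 ISWI genes and 5 of 8 NuRD genes. In INO80, SRCAP and EP400 it was the same for 10 of 11, and for 3 of the 4 other enzymes. Some of these signs rest on values at about 0, as for Actr5 and Ep400 at E18.5 (0.00 each) and Ruvbl2 at E14.5 (−0.00). Across the members the log2 fold changes of the stages had a Pearson r of 0.44 and a Spearman rho of 0.39 (n = 55 genes), beside 0.21 and 0.22 across the 13106 genes. Without Ino80c the members' r was 0.32 (n = 54 genes). Genes are not independent replicates, and the stages share no library. The members also had smaller SEs than all genes, with medians of 0.0533 against 0.0727 at E18.5 and 0.0471 against 0.0684 at E14.5. The part of this precision in the higher r was not tested.

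Ino80c had a log2 fold change of 0.22 at E18.5 and 0.22 at E14.5, with a difference of −0.01 (SE 0.106, 95% interval −0.21 to 0.20). A mean of both stages weighted by precision, computed after these values were seen, was 0.22 (SE 0.0524), or 16.5% above WT, with an adjusted p of 0.00399 by a two-sided normal test. On this combined value Ino80c was the 1 member to pass, against 1.1% of all genes higher in KI and 0.839% lower. Ino80 stood at 0.13 (SE 0.0424, adjusted p = 0.0948) and Actr5 at 0.15 (adjusted p = 0.163). The call of Ino80c ended when the statistics were scaled to their own spread (adjusted p = 0.109).

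**Figure D2:**
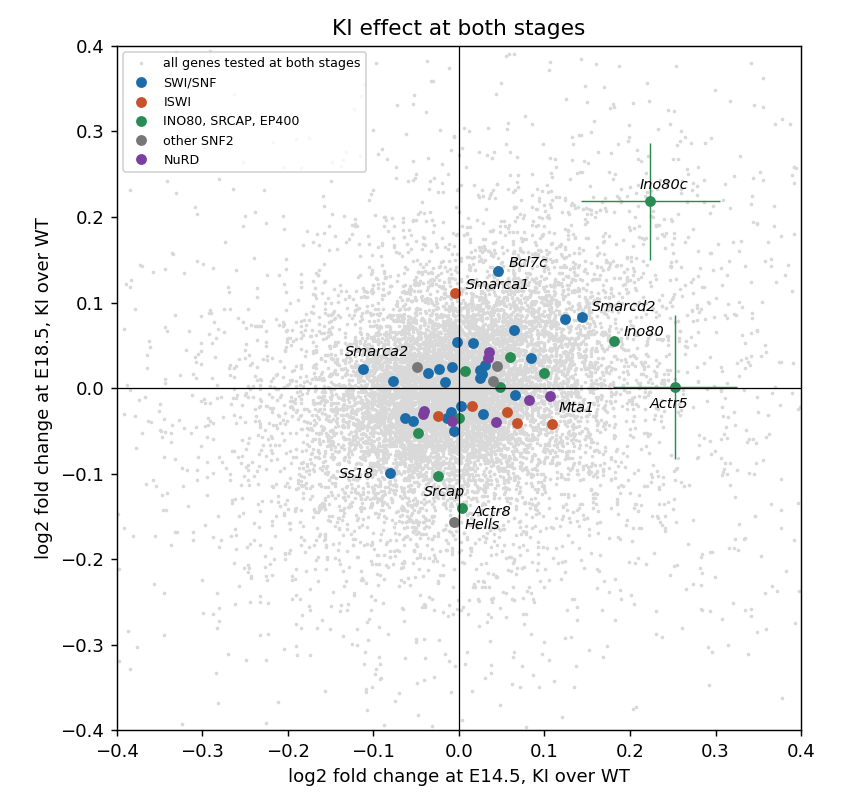
Log2 fold change of KI over WT at E18.5 (y axis) and at E14.5 (x axis) for the 55 subunit genes, coloured by complex, over all genes tested at both stages in grey (values beyond 0.4 are not drawn). Crosses give 1 SE for Ino80c, at 0.22 on both axes, and for Actr5, at 0.00 on the y axis and 0.25 on the x axis.

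A further 40 subunits of these complexes, listed by name apart from the 55, were all tested, and 0 passed at either stage. Their median log2 fold change was 0.01 at E18.5 and 0.01 at E14.5. By the DESeq2 Wald test, unadjusted p was under 0.05 for 1 higher and 1 lower in KI at E18.5, and for 4 higher and 1 lower at E14.5. These are 5% of the 40 at E18.5 and 12.5% at E14.5, near the 5.96% and 11.5% of all genes. Chd3, a motor of NuRD, had the largest statistic at each stage. It was at 0.13 at E18.5 (SE 0.0390) and 0.08 at E14.5 (SE 0.0336) in the authors' deposited table, with adjusted p-values of 0.194 and 0.276. With both stages together, the analysis added later, Chd3 passed (adjusted p = 0.00673, two-sided normal test), and this call too ended when the statistics were scaled to their own spread (adjusted p = 0.141). Next by statistic was Mcrs1 of INO80 at E18.5, with a value of −0.12 in the authors' deposited table (SE 0.0436) and an adjusted p of 0.580. At E14.5 it was the ISWI partner Baz2b, at 0.11 (SE 0.0526) and an adjusted p of 0.378 in the authors' deposited table.

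Between stages the subunit genes spanned a wider range than between genotypes. The tables give a mean normalized count over all libraries of a stage, KI and WT together, and were normalized separately, so a ratio of E18.5 to E14.5 is a description without a test. Ratios were centred on the median gene, which lay at 0.09 on the log2 scale before centring, and each has an approximate SE that covers the spread within a stage. In bulk tissue, fewer cells of a type and less RNA per cell cannot be told apart. On this measure 42 of the 55 genes were lower at E18.5, with a median log2 ratio of −0.35. Beside this stands 50% of all genes, a share fixed by the centring on their median. At E18.5, 5 members were at least 2-fold lower (5.14% of all genes) and 0 at least 2-fold higher (9.48% of all genes). The ratios ran from −2.21 to 0.72, against log2 fold changes of KI over WT from −0.16 to 0.25. The same ranges over all genes are not given here, so this contrast is not shown to be particular to the members.

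Hells stood lowest, with normalized counts averaging 246 at E18.5 and 1064 at E14.5, 4.61-fold lower (log2 ratio −2.21, SE 0.0595). Baz1a, which works with Smarca5 in spacing nucleosomes, had 236 at E18.5 and 947 at E14.5, 4.28-fold lower (−2.10, SE 0.0637). Actl6a had 675 at E18.5 and 1738 at E14.5, 2.75-fold lower. The remaining members past 2-fold were a deacetylase and an ISWI motor. Hdac1 had 902 at E18.5 and 1954 at E14.5 (2.31-fold lower), and Smarca5 had 2058 at E18.5 and 4172 at E14.5 (2.16-fold lower). Ss18 followed at a log2 ratio of −0.94 (SE 0.0377). The other progenitor subunit genes, Dpf2 and Phf10, stood at −0.65 (SE 0.0366) and −0.23 (SE 0.0389), beside the members' median of −0.35.

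At the other end of the order Smarca2 had 6317 at E18.5 and 3586 at E14.5, 1.65-fold higher (log2 ratio 0.72, SE 0.0277). Smarca1 had 1404 at E18.5 and 867 at E14.5 (1.52-fold higher), and Actl6b had 2968 at E18.5 and 1905 at E14.5 (1.46-fold higher). The neuronal subunit genes Ss18l1 and Dpf1 stood at log2 ratios of 0.42 (SE 0.0282) and 0.41 (SE 0.0346). Dpf3, also a neuronal subunit gene, went the other way and was lower at E18.5, at −0.51 (SE 0.101). Of the 54 pairs of neighbours in this order, 45 lay closer together than the 95% interval of their difference. In INO80, SRCAP and EP400, 10 of 11 genes were lower at E18.5, from −0.64 for Ruvbl2 to −0.11 for Ino80. Ino80c stood at 0.00, and the sign of its ratio, like those of Atrx, Bcl7c and Smarcc2, turned with the centring.

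Markers of cell classes differed over the same span. All 10 neuronal markers were higher at E18.5 (median log2 ratio 0.79) and all 10 markers of progenitors and division were lower (median −1.81), among them Mki67, which marks dividing cells, at −2.41 (SE 0.0348). All 7 glial markers tested at both stages were higher (median 2.56). Their part in the ratios of the subunit genes was not tested.

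**Figure D3:**
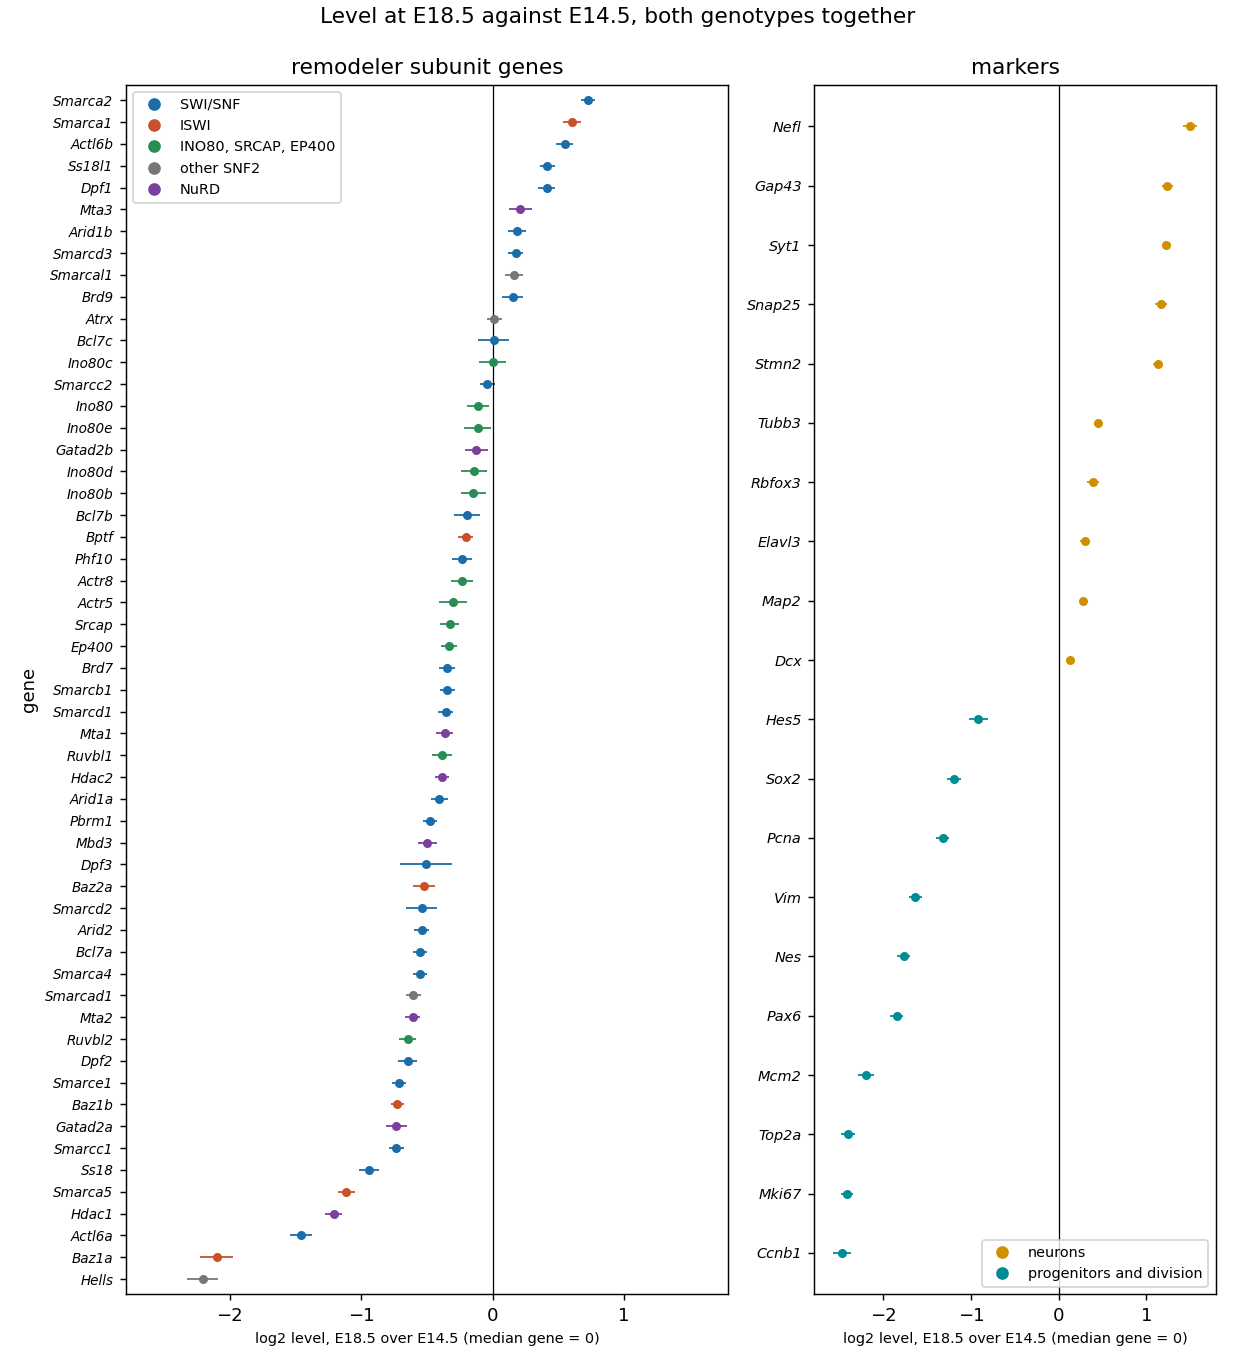
Log2 ratio of the mean normalized count at E18.5 to that at E14.5, with the median gene set to 0, for the 55 subunit genes (left, coloured by complex) and for markers of neurons and of progenitors and division (right). Lines are approximate 95% intervals; Hells at −2.21 and Smarca2 at 0.72 bound the subunit genes, and the neuronal and the progenitor markers lie on opposite sides of 0.

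Within a complex the balance of related genes differed between stages. The change of the ratio of 2 genes between tables depends on neither the length of the genes nor the scale of a table. Of 20 pairs examined, 18 had an approximate 95% interval that left out 0. These intervals take the 2 genes of a pair as independent, though both were measured in the same libraries. For Actl6b over Actl6a the ratio of counts was 4.40 at E18.5 and 1.10 at E14.5, a 4.01-fold change (95% interval of the log2 change 1.90 to 2.11). It was the largest change of the 20 pairs. Ss18l1 over Ss18 was 3.88 at E18.5 and 1.51 at E14.5, a log2 change of 1.36 (SE 0.0471). Dpf1 over Dpf2 was 2.42 at E18.5 and 1.16 at E14.5, a log2 change of 1.06 (SE 0.0503). These 3 pairs moved towards the subunits of neurons, as did Dpf1 over Phf10, with a smaller log2 change of 0.64 (SE 0.0520). Dpf3, also a subunit of neurons, changed by 0.14 on the log2 scale over Dpf2 (95% interval −0.07 to 0.35) and by −0.28 over Phf10 (−0.49 to −0.07).

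Among the other SWI/SNF pairs, the motors Smarca2 over Smarca4 stood at 0.603 at E18.5 and 0.248 at E14.5, a log2 change of 1.28 (SE 0.0388). Smarcc2 over Smarcc1 changed by 0.69 (SE 0.0407) and Arid1b over Arid1a by 0.59 (SE 0.0469). Smarcd3 gained on Smarcd1 by 0.53 and on Smarcd2 by 0.71 (SE 0.0408 and 0.0669). Bcl7a lost ground at E18.5, with −0.36 against Bcl7b and −0.56 against Bcl7c (SE 0.0564 and 0.0654).

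In ISWI the ratio of Smarca1 to Smarca5 was 0.683 at E18.5 and 0.208 at E14.5, a log2 change of 1.72 (SE 0.0488). In NuRD, Hdac1 over Hdac2 changed by −0.82 (SE 0.0423) and Gatad2a over Gatad2b by −0.61 (SE 0.0609). Mta3 gained 0.82 on Mta2 and 0.58 on Mta1 (SE 0.0517 and 0.0541). Srcap over Ep400 changed by 0.01 (95% interval −0.09 to 0.10) and Ruvbl1 over Ruvbl2 by 0.26 (SE 0.0508). No gene of these 20 pairs passed between KI and WT at either stage.

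**Figure D4:**
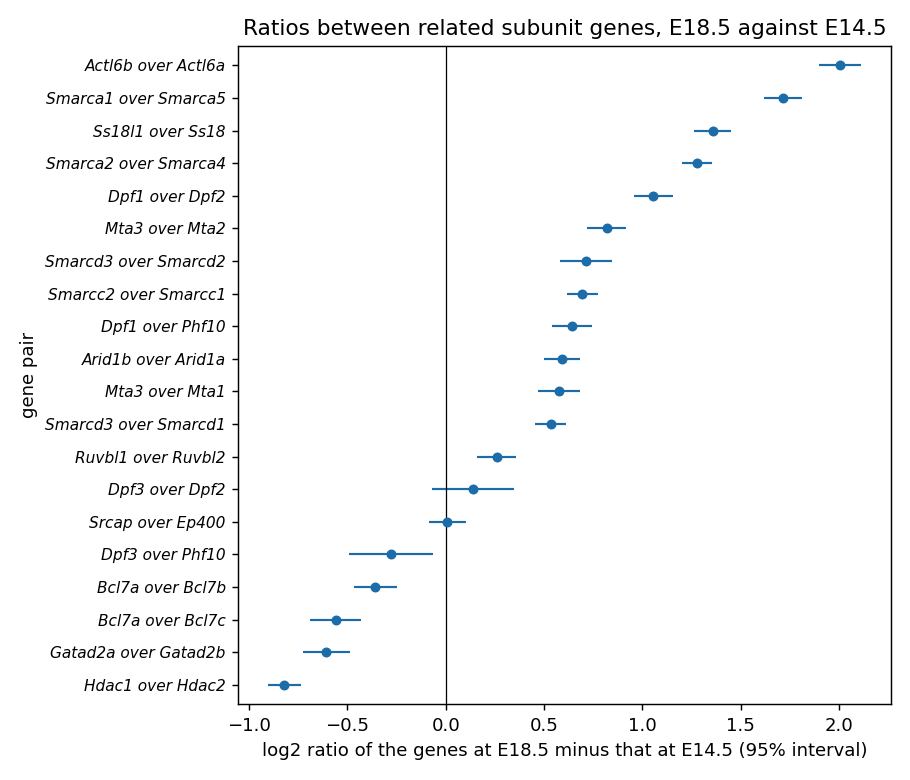
Log2 ratio of the mean normalized counts of 2 related subunit genes at E18.5, less the same log2 ratio at E14.5, for 20 pairs, with approximate 95% intervals; positive values mean that the first gene gained on the second. Actl6b over Actl6a lies highest, a 4.01-fold change, and Hdac1 over Hdac2 lowest, at −0.82.

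The sequences before the starts of Actl6a and Actl6b, the pair that changed most between stages, and of Hells, which stood lowest at E18.5, are shown to compare their promoters. Each is the 250 bases upstream of a RefSeq start on the + strand of GRCm38.p6, at chr3:32708296-32708545 for Actl6a, chr5:137553296-137553545 for Actl6b and chr19:38930740-38930989 for Hells. Capitals mark matches on either strand to a CCAAT box (CCAAT), an E2F motif (TTTGGCGC, TTTCCCGC or TTTCGCGC), an ETS motif (CCGGAAG), the NRF1 motif or a TATA box (TATAAA), and no 2 matches overlap.
Actl6a: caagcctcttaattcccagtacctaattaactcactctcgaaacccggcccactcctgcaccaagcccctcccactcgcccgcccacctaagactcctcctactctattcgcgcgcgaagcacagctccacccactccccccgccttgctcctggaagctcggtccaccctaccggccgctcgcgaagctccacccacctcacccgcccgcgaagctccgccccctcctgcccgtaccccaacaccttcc
Actl6b: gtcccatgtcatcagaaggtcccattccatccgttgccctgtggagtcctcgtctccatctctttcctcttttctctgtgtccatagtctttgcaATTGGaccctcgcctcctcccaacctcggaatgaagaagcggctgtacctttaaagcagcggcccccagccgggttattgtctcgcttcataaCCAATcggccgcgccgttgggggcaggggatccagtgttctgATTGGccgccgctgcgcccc
Hells: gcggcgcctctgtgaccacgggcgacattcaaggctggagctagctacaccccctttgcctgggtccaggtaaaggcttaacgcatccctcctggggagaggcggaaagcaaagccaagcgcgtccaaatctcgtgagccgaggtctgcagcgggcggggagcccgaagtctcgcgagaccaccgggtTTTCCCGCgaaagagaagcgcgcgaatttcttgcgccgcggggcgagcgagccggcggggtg
The window of Actl6a, with 64.8% GC, held no match. That of Actl6b, with 58% GC, held 3 CCAAT boxes, and that of Hells, with 65.6% GC, held 1 E2F match 62 to 55 bases before the start. The annotated interval of Actl6b begins inside its window and that of Hells before its window, so RefSeq places other starts there.

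Of the 55 genes 44 had an entry among the RefSeq promoters, with 50 starts in all. A CCAAT box was present in 32% of these 50 windows, beside 33.8% of all 32851 windows of that length. An E2F match was present in 8% (4 windows), beside 1.53%. An ETS match was found in 14% (7 windows), beside 6.91%, a TATA box in 6% (3 windows), beside 12.4%, and an NRF1 match in 0%, beside 0.782%. These shares count letters in few member windows, and some genes contribute more windows than others. The background was not matched for GC content or for expression in forebrain, and no binding was measured here.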

How the data were processed

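Of the series, the 20 RNA libraries were used through the authors' tables, and the ChIP-seq and ATAC-seq libraries were not used here. The submitters' processing notes name, for the authors' work, DESeq2 1.26.0, featureCounts 2.0.0, HISAT2 2.1.0 and Trimmomatic 0.39, and mm10 as build. Per the file headers, each deposited table holds a signal (the mean normalized count over both genotypes), a log2 fold change and its SE. It also holds a score, the Wald statistic, and a raw and an adjusted p-value, as deposited. The headers do not say which genotype is on top; Chd8 is positive, so positive was read as KI over WT.

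The tables have 0 columns of single libraries. Symbols and coordinates are from RefSeq (GRCm38.p6). Means per genotype were implied from the mean and fold change for 5 against 5 libraries. Differences between stages were tested with a two-sided normal test, adjusted by Benjamini-Hochberg over genes tested at both. Intervals are 95% (1.96 SE). The SE of a stage ratio is 0.5 times the root of the summed squared SEs, which takes the spread as equal in both genotypes. Intervals for pairs of genes, and for neighbours in the order of ratios, take the 2 genes as independent. Their covariance within libraries is unknown here. Levels and shares per kilobase had been planned, but no transcript lengths were used, so changes of ratios replace them. Calculations ran in Python 3.11.15 with numpy 2.4.6, pandas 2.3.3, scipy 1.17.1 and matplotlib 3.10.9. Of the analyses, only the test of differences between stages was tried on simulated data.

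The members, lists and tests were chosen with earlier results of these data known. Full statistics were given for members that passed, for the 6 largest Wald statistics per stage, for the 4 largest stage differences and for related pairs. Outside the members, Chd8 and the 2 other subunits with the largest statistic per stage were named. Members with values but outside this rule, and the markers, were named to describe their complex or class.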

Additional observations from a re-analysis of the deposited data

How the results depend on the processing

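At E18.5, 6 genes were higher and 3 lower in KI; the counts were 3 and 1 with the Benjamini-Yekutieli adjustment and 13 and 6 with the empirical null (Wald statistics centred and scaled to their own spread). The lower count was 5 for genes with means of 50 or more and 6 for means of 100 or more. The members' count was 0 in each of these. At E14.5, 99 genes were higher and 63 lower; the counts were 36 and 20 with Benjamini-Yekutieli and 25 and 7 with the empirical null. The members' count of 1 at E14.5 became 0 with both and with every gene with a p-value adjusted, and stayed at 1 for means of 50 or more and 100 or more. Of the values of single genes examined, Actr5 at E14.5 (those 3 settings) and Ino80c and Chd3 in the combined value (empirical null) lost their calls, and 0 changed sign. The stage difference gave 0 genes with means of 100 or more and with the empirical null, beside 593 genes at an unadjusted p under 0.05 (normal test). The counts within a 1.2-fold interval became 55 with a 1.5-fold interval, and the members lower at E18.5 were 41 without centring and 45 centred on summed counts. The combined value and that last centring were added after seeing the data. Scaling by length and shares per kilobase of transcript or coding length were not run, since no transcript lengths were used. No paired analysis was possible because the tables carry no values of single libraries, and for the same reason no library could be left out. Depth is unknown, and the precision rests on the deposited SE.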

Other observations

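Among the 40 further subunits, 31 were lower at E18.5 than at E14.5 after centring (median log2 ratio −0.23) and 25 without centring, both genotypes together and without a test. Of all genes 50% were lower after centring, which fixes that share. In NuRD the motor gene Chd5, known for its expression in neurons, had 6868 normalized counts at E18.5 and 2470.4 at E14.5, 2.61-fold higher after centring (log2 ratio 1.38, SE 0.0368). Its paralog Chd4 had 7751 at E18.5 and 13123 at E14.5, 1.81-fold lower, and Chd3 stood at a log2 ratio of 0.05 (SE 0.0257). Cecr2, a partner of ISWI motors, had 297 at E18.5 and 1116 at E14.5, 4.01-fold lower. Zfp219, listed here with NuRD, was 2.51-fold lower and Cdk2ap1, a NuRD subunit, 2.31-fold lower. These genes were named after their values were seen.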
